A study of Mus musculus with 2 samples.

Results

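Continuous capillary cells of the mouse adrenal gland were picked from 2 single-cell RNA libraries of sorted endothelium as 1409 of 9927 cells. A cell was taken when Cd36, Car4, Aqp7 and Rbp7 together held at least 4 UMIs (unique molecular identifiers, which count captured RNA molecules) and at least 0.2% of the cell's UMIs. It also had to hold no UMI of Plvap and fewer than 3 UMIs of the haemoglobin genes Hba-a1, Hba-a2, Hbb-bs and Hbb-bt. These are called gated cells, and the remaining cells of the same library, which like them passed minima of 500 UMIs and 300 genes and a limit of 15% on mitochondrial UMIs, are called other cells. The VEGF/LysM library gave 684 gated cells among 3793, and the WT library gave 725 among 6134. The genes and the thresholds of the choice are not results. Because the choice also sorts every gene that goes with them, gated cells are described against other cells without a test.

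The first group came from mice of the genotype VEGF/LysM and the second from wild type (WT) mice, all female and 12 weeks old, and the study addressed the effect of macrophage-derived VEGF-A on the variety of adrenal endothelium. LysM is an older name of Lyz2, a lysozyme gene of macrophages and neutrophils. The labels do not give the alleles, whether the gene of VEGF-A was lost or gained, or how many mice were pooled. Both glands were minced and digested in the cold with a Bacillus protease, and viable cells with the endothelial surface protein CD31 and without the leukocyte protein CD45 were sorted. Each genotype had 1 library, so no value has a replicate check, and every difference below is between these libraries. Intervals are 95% intervals that cover counting error only.

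Continuous capillaries are lined by endothelium without windows and are the usual capillary of muscle, heart and fat. Their cells take up fatty acids: lipoprotein lipase (Lpl) anchored by Gpihbp1 frees them from lipoproteins, Cd36 moves them across the membrane, and Fabp4 and Fabp5 bind them inside the cell. The transcription factors Pparg, Meox2 and Tcf15 are known for driving this programme in endothelium of heart and muscle. Most adrenal capillaries are fenestrated instead, with windows closed by diaphragms of the Plvap protein, through which steroid hormones reach the blood.

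Gated cells carried endothelial markers in both libraries. Cdh5 (VE-cadherin) had a UMI in 92.7% of VEGF/LysM and 88.6% of WT gated cells, against 84.4% and 74.0% of other cells. Pecam1 had one in 83.9% and 70.5% of gated cells, against 86.8% and 76.4% of other cells. Among the genes of the choice, Cd36 had a UMI in 100% of gated cells of each library. Car4 had one in 56.4% of VEGF/LysM and 40.8% of WT gated cells, so "Car4 positive" holds for a part of them at this depth. Gated cells had a median of 1696 UMIs in VEGF/LysM and 938 UMIs in WT, against 2471 and 1223 UMIs in other cells, of which 5.60% and 2.96% had a Car4 UMI and 18.3% and 13.8% a Cd36 UMI.

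Markers of other cell types were found at low summed levels, and those of adipocytes and of the adrenal cortex were higher in gated than in other cells. Of 14 myeloid marker genes, S100a8 and S100a9 were at 0 in gated cells of both libraries, and 8 VEGF/LysM and 5 WT gated cells held 3 or more myeloid UMIs. Adipocytes share Cd36, Fabp4, Lpl and Pparg with these cells, and 10 markers of adipocytes themselves, such as Adipoq and Plin1, summed to 37.0 CPM (counts per 1000000 of the summed UMIs) in VEGF/LysM and 63.3 CPM in WT gated cells, against 12.4 and 7.53 CPM in other cells, with Adrb3 at 0 in both sets of gated cells. The 12 adrenocortical markers, genes of steroid synthesis, summed to 667 and 433 CPM in gated cells, against 396 and 231 CPM in other cells. Cells with 3 or more adrenocortical UMIs were 6.87% of VEGF/LysM and 4.83% of WT gated cells (47 and 35 cells), against 2.54% and 1.46% of other cells, and their part in the results was not tested except where values without them are given. The libraries shared 10 cell barcodes, and 0 of these were gated in both.

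Promoters of the most enriched genes are shown because Pparg, whose product is a nuclear receptor that binds fatty acids, was itself among them. Its class of receptors binds the half-site AGGTCA, and its own element repeats the half-site with a base between (AGGTCANAGGTCA, where N is any base). The windows below are from RefSeq on GRCm38.p6 and run from 250 bases before to 50 bases after an annotated start, written on the gene's strand, with AGGTCA or its reverse complement in capitals. Shown are the 2 of 3 starts of Pparg that have a half-site, 1 start of Tmem182 with one, and 1 of Meox2 without.

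Pparg, chr6:115360894-115361193 (+): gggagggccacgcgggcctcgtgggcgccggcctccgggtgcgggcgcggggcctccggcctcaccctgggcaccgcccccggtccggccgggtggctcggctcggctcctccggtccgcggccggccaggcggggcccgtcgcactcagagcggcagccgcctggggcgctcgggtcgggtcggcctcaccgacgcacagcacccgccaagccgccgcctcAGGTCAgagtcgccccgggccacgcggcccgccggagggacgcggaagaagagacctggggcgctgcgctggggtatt
Pparg, chr6:115362099-115362398 (+): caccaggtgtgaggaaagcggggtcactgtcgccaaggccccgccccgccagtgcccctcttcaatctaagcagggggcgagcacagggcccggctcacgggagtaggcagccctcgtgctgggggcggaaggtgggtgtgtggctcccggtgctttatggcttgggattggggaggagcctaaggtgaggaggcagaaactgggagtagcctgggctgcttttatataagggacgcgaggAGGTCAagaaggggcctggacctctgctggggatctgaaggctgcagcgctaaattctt
Tmem182, chr1:40805351-40805650 (+): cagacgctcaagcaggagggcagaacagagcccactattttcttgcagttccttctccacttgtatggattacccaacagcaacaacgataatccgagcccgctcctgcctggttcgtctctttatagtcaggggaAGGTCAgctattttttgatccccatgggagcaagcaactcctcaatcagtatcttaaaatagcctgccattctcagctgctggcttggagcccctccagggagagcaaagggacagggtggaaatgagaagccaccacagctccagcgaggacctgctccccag
Meox2, chr12:37108290-37108589 (+): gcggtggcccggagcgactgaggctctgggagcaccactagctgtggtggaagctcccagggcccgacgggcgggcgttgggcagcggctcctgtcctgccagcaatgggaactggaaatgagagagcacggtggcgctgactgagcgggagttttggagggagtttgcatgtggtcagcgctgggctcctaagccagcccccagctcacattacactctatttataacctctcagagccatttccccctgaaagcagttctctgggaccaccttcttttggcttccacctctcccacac

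Of the 15 genes named below as most enriched, 11 had a window, 14 windows in all. AGGTCA, searched on both strands, was in 6 of the 14 windows, from 4 of the 11 genes, against 16.3% of 32851 RefSeq windows of the same length. The 6 were 1 window of Tmem182, 1 of Cxcl9, 2 of the 3 of Pparg and 2 of Pbld1. The full AGGTCANAGGTCA was in 0 of the 14, against 0.0396% of all windows. A match is a description of these letters and not a binding site.

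Against other cells, gated cells held more RNA of continuous capillary markers, of Pparg with its partners, of caveolar genes and of part of the fatty-acid genes, and less RNA of fenestrated capillary genes. Of 10931 genes with at least 50 UMIs, 382 (3.49%) were past 2-fold higher and 873 (7.99%) past 2-fold lower in gated cells of each library. The choice of cells fixes much of this, so nothing is read from these shares. The median log2 ratio of all these genes was -0.09 in each library, and 1149 of the 1255 had intervals that left out equal levels.

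Angptl4 ranked first by the interval bound nearest to equal levels, and Lpl was also among the 15 highest. Angptl4, a secreted inhibitor of lipoprotein lipase (chr17:33773750-33781830, minus strand, GRCm38), had 458 CPM in gated cells against 34.2 CPM in other cells of the VEGF/LysM library, and 394 against 26.5 CPM in those of the WT library (log2 ratio 3.74, 3.54 to 3.94, and 3.90, 3.64 to 4.15). Lpl had 714 CPM in gated cells against 69.3 CPM in other cells of the VEGF/LysM library, and 766 against 60.9 CPM in those of the WT library (3.36 and 3.65 on the log2 scale). In both libraries the gated level of either gene lay far above the level in other cells.

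Fabp4, a fatty-acid carrier of capillaries and adipocytes (chr3:10204088-10208576, minus strand), had 25559.6 CPM in gated cells against 4109 CPM in other cells of the VEGF/LysM library, and 17455 against 2306 CPM in those of the WT library (log2 ratios 2.64 and 2.92). Fabp5, its neighbour on chromosome 3 (chr3:10012548-10016607, plus strand), had 1618 CPM in gated cells against 212 CPM in other cells of the VEGF/LysM library, and 827 against 111 CPM in those of the WT library (2.93 and 2.89). Gpihbp1, the anchor of lipoprotein lipase on capillaries (chr15:75596628-75599481, plus strand), had 1897 CPM in gated cells against 737 CPM in other cells of the VEGF/LysM library, and 1357 against 548 CPM in those of the WT library (1.36 and 1.31). Other cells also held much Gpihbp1, and its ratio was the smallest of these carriers and anchors.

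Of the 14 measured genes of fatty-acid uptake, binding and activation, 6 were past 2-fold higher, with median log2 ratios of 0.90 and 0.84. Acsl1, which activates fatty acids with coenzyme A, was at 1.02 and 1.16. Of 25 genes of fatty-acid oxidation and storage, 5 were past 2-fold higher and 0 lower, with medians of 0.50 and 0.46. Most of these 5 belong to storage and release of triglyceride: the lipid droplet coat gene Plin2 (2.11 and 2.18), and the lipases Pnpla2 (1.46 and 1.21), Lipe (2.03 and 1.96) and Mgll (2.24 and 2.22). The other was the mitochondrial oxidation enzyme gene Hadhb (1.06 and 1.14).

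Pparg (chr6:115360951-115490399, plus strand), whose windows are printed above, had 1116 CPM in gated cells against 107 CPM in other cells of the VEGF/LysM library, and 857 against 70.2 CPM in those of the WT library (log2 ratio 3.38, 3.26 to 3.49, and 3.61, 3.45 to 3.77). Of 15 measured genes listed as PPAR-gamma targets or partners, 11 were past 2-fold higher and 0 lower, with medians of 2.11 and 2.18, a list that shares Pparg, Fabp4, Fabp5, Lpl, Gpihbp1, Meox2 and Tcf15 with the continuous capillary markers. The homeobox factor Meox2 had 316 CPM in gated cells against 30.9 CPM in other cells of the VEGF/LysM library, and 269 against 20.6 CPM in those of the WT library (3.35 and 3.70). Its usual partner Tcf15, a basic helix-loop-helix factor, had 624 CPM in gated cells against 75.2 CPM in other cells of the VEGF/LysM library, and 709 against 76.4 CPM in those of the WT library (3.05 and 3.21). Meox1, the related homeobox gene, was past 2-fold lower in VEGF/LysM alone, at -1.03 and -0.18, and in WT its sign changed under some alternatives (-0.61 to 0.33).

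Of the 22 continuous capillary markers outside the choice, 15 were past 2-fold higher in each library and 0 lower, with medians of 2.28 and 2.49. Timp4, an inhibitor of matrix metalloproteinases, had 585 CPM in gated cells against 49.3 CPM in other cells of the VEGF/LysM library, and 582 against 42.2 CPM in those of the WT library (3.57 and 3.79). Cxcl12, a chemokine of many vessels, had 773 CPM in gated cells against 108 CPM in other cells of the VEGF/LysM library, and 921 against 71.3 CPM in those of the WT library (2.84 and 3.69). The water channel gene Aqp1 was at 1.99 and 2.34, and the sialomucin receptor gene Cd300lg at 1.52 and 1.41. Kdr (VEGF receptor 2) was near equal at -0.24 and -0.23, with 1797 CPM in gated cells against 2118 CPM in other cells of the VEGF/LysM library, and 2066 against 2416 CPM in those of the WT library.

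The remaining genes among the 15 with the largest ratios came from other families. Cxcl9, an interferon-gamma-induced chemokine, had 449 CPM in gated cells against 37.6 CPM in other cells of the VEGF/LysM library, and 343 against 22.3 CPM in those of the WT library (3.58 and 3.94). Dach1, a nuclear factor known in coronary artery growth, had 1132 CPM in gated cells against 112 CPM in other cells of the VEGF/LysM library, and 1220.0 against 92.1 CPM in those of the WT library (3.34 and 3.73). Cdh13 (T-cadherin, a receptor of adiponectin) had 1604 CPM in gated cells against 164 CPM in other cells of the VEGF/LysM library, and 1469 against 115 CPM in those of the WT library (3.29 and 3.67). Others were Tmem182 (3.76 and 4.17), the actin-binding protein gene Ablim3 (3.46 and 3.74), the nucleoside transporter Slc28a2 (3.50 and 3.74), the ubiquitin ligase Lnx1 (3.40 and 3.76), the potassium channel Kcna5 (3.57 and 3.81), Pbld1 (3.45 and 3.60) and the transporter Abca8b (3.55 and 3.76).

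**Figure D1:**
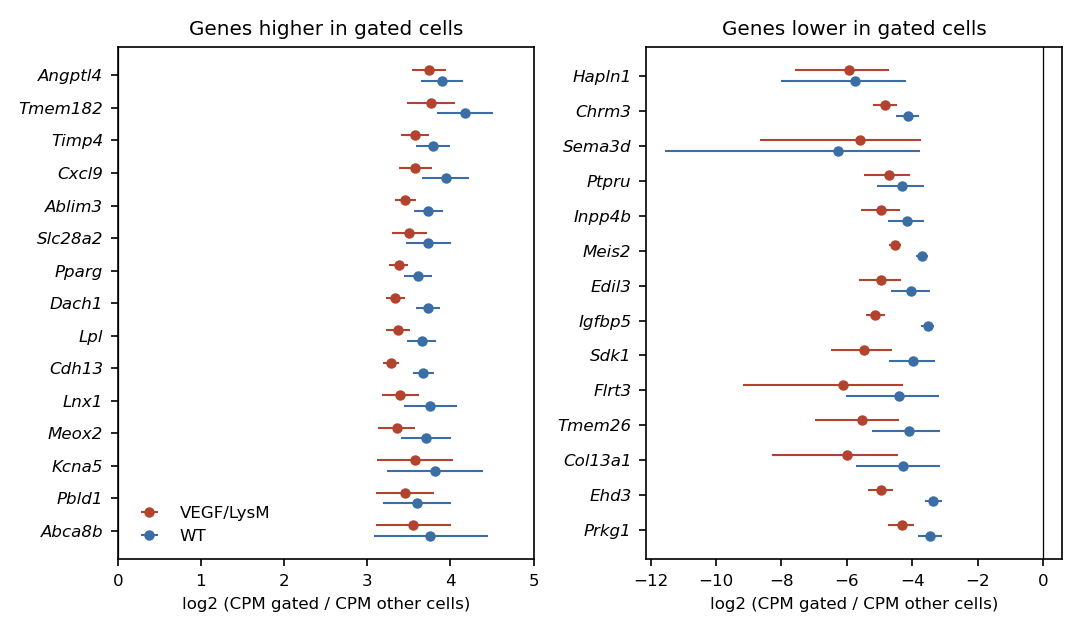
Log2 ratio of CPM in gated cells over CPM in other cells (x axis) for the 15 genes named for higher and 14 named for lower levels, per library, with 95% counting intervals. Every point of the left panel lies above 3 and each on the right is under -3 in both libraries.

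Caveolae, membrane pits that are dense in continuous endothelium, had 6 of 10 measured genes past 2-fold higher and 2 lower. Cav1, the coat protein, had 2259 CPM in gated cells against 321 CPM in other cells of the VEGF/LysM library, and 2456 against 293 CPM in those of the WT library (2.81 and 3.07). Its coat partners Cavin1 (2.55 and 2.74) and Cavin2 (2.34 and 2.23) and the membrane ATPase Ehd2 (2.34 and 2.85) stood in the same direction. Cavin3 (-1.47 and -1.20) and Ehd4 (-3.06 and -2.72) stood in the opposite one. Of 18 junction genes, 5 were past 2-fold higher and 0 lower: Cdh13, Cdh5 (1.19 and 1.17), the tight junction gene Cldn5 (1.89 and 1.60), Jam2 (1.42 and 1.32) and the scaffold Afdn (2.01 and 2.18).

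Genes of fenestrated capillaries were lower in gated than in other cells, and Plvap, itself of that type, was held at 0 by the choice. Of 19 measured members without Plvap, 17 were past 2-fold lower and 0 higher, with medians of -4.49 and -2.99. Summed over the list, gated cells held 910 CPM in the VEGF/LysM and 1704 CPM in the WT library, against 9987 and 11516 CPM in other cells. Igfbp5, an IGF-binding protein, had 67.2 CPM in gated cells against 2347 CPM in other cells of the VEGF/LysM library, and 244 against 2818 CPM in those of the WT library (-5.13 and -3.53). Ehd3, a membrane-recycling ATPase of glomerular and other fenestrated endothelium, had 38.3 CPM in gated cells against 1190.3 CPM in other cells of the VEGF/LysM library, and 153 against 1566 CPM in those of the WT library (-4.96 and -3.36). The WT ratio of either gene was the smaller in size.

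A transcription factor of other capillary types was low as well. Meis2, a homeobox factor, had 159.9 CPM in gated cells against 3709.5 CPM in other cells of the VEGF/LysM library, and 308 against 4011 CPM in those of the WT library (-4.54 and -3.70). Also among the 15 lowest by rule were the matrix protein gene Hapln1 (-5.95 and -5.74), the muscarinic receptor Chrm3 (-4.83 and -4.13), the semaphorin Sema3d (-5.59 and -6.26), Ptpru (-4.72 and -4.32), Inpp4b (-4.94 and -4.16) and Edil3 (-4.95 and -4.02). The adhesion genes Sdk1 and Flrt3, the collagen Col13a1, Tmem26 and Prkg1 were also among them.

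Venous genes had 7 of 10 past 2-fold lower, with Nr2f2, the venous identity factor, at -2.005 and -1.82, and lymphatic genes 3 of 3. MHC class II genes had 6 of 7 lower, among them Cd74 (-2.75 and -1.18). When other cells with 3 or more UMIs of non-endothelial markers were left out, Cd74 came to -0.55 in VEGF/LysM and turned to 2.12 in WT. In WT 1 gated cell held 35 of the 43 UMIs of Cd74 and 71 of the 96 UMIs of the MHC class II genes, so the WT values lean on a single cell. Of 24 measured arterial genes, 1 was past 2-fold higher, the Notch target Hey1 at 1.64 and 1.40, and 4 were lower, including the growth factor gene Ptn (-3.13 and -2.33). Of 14 tip cell genes, 1 was higher, Angpt2 (2.17 and 1.24), and 6 lower, including Esm1 (-5.68 and -2.57). Of 16 BMP and TGF-beta genes, 2 were higher, the ligand Bmp6 with 613 CPM in gated cells against 89.6 CPM in other cells of the VEGF/LysM library, and 607 against 74.7 CPM in those of the WT library (2.77 and 3.02) and Atoh8 (2.43 and 2.47), and 2 lower. Fkbp5, a chaperone gene induced by glucocorticoids, was lower at -2.76 and -2.45. It was 1 of 2 genes past 2-fold lower among 14 glucocorticoid-induced genes, of which 2 others, Mt1 and Sult1a1, were past 2-fold higher.

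The share of gated cells was higher in the VEGF/LysM library, by an amount that depended on depth. Gated cells made up 18.0% of the VEGF/LysM library (684 of 3793, 16.82 to 19.29%) and 11.8% of the WT library (725 of 6134, 11.02 to 12.65%), a difference of 6.21 points (4.76 to 7.69). The choice needs 4 UMIs of the marker genes and none of Plvap, so a cell's depth bears on both, and the libraries differed in depth. With every cell thinned at random to 1000 UMIs before the choice, and shallower cells left out, the shares were 19.6% (685 of 3503) and 9.02% (360 of 3993), a difference of 10.5 points (8.96 to 12.1).

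By depth, cells of 500 to under 1000 UMIs were gated at 22.4% in VEGF/LysM (65 of 290, 17.7 to 27.7%) and 18.8% in WT (403 of 2141, 17.2 to 20.5%), with overlapping intervals. Between 1000 and under 2000 UMIs the shares were 30.6% (360 of 1176) and 8.05% (251 of 3119), the widest gap of the 4 depth ranges. From 2000 to under 4000 UMIs they were 10.9% (197 of 1803) and 8.13% (63 of 775), and from 4000 UMIs 11.8% (62 of 524) and 8.08% (8 of 99), again with overlapping intervals. The gap was therefore not even over depth, and the part of depth and of cell recovery in it was not tested. A share cannot tell more gated cells from fewer other cells.

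**Figure D2:**
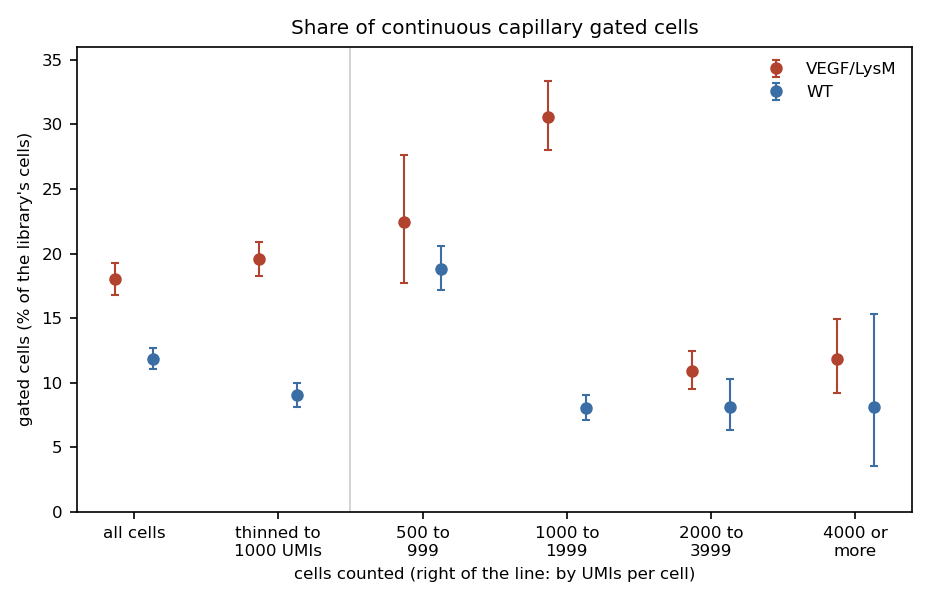
Gated cells as a percentage of the library's cells (y axis), with exact binomial 95% intervals, for VEGF/LysM and WT. The left points use the counts as deposited and cells thinned to 1000 UMIs, and those right of the line show 4 ranges of UMIs per cell, of which 1000 to under 2000 UMIs has the widest gap (30.6% and 8.05%).

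Between the libraries, gated cells differed in several groups of genes. VEGF/LysM gated cells held more RNA of the fatty-acid carrier Fabp5 and of MHC class I presentation, and less RNA of immediate-early and of fenestrated capillary genes. Of 7119 genes with at least 50 UMIs in gated cells, 352 (4.94%) were past 1.5-fold higher and 357 (5.01%) past 1.5-fold lower in VEGF/LysM, with a median log2 ratio of -0.02. Of these 709 genes, 485 had an interval that left out equal levels. Among other cells, 4.71% of 12632 genes were past 1.5-fold higher and 2.57% lower. VEGF/LysM gated cells were deeper, and they summed to 1488444 UMIs against 836893 UMIs in WT gated cells.

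Vegfa itself, the gene of VEGF-A, was near the detection limit in gated cells, with 14 UMIs in VEGF/LysM and 6 UMIs in WT (9.41 and 7.17 CPM). Since macrophages were sorted away, this checks neither the genotype nor the label. Of its receptors, Kdr had 1797 CPM in VEGF/LysM and 2066 CPM in WT gated cells (log2 ratio -0.20, -0.29 to -0.11), and Flt1 (VEGF receptor 1) had 1674 CPM in VEGF/LysM and 1989.5 CPM in WT gated cells (log2 ratio -0.25, -0.34 to -0.16). Flt4 (VEGF receptor 3) had 62.5 CPM in VEGF/LysM and 112 CPM in WT gated cells (log2 ratio -0.85, -1.28 to -0.42) and was the only one of the 6 measured VEGF ligand and receptor genes past 1.5-fold. Flt4 also stands on the fenestrated list, and other cells differed the same way (-0.38). It fell short of 1.5-fold under the choice by Aqp7 and Rbp7 alone (-0.53) and when thinned cells with 2 or more fenestrated UMIs were left out (-0.04).

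Of 12 measured VEGF-A-responsive genes, 4 were past 1.5-fold lower in VEGF/LysM gated cells and 0 higher, against the 5.01% of all genes lower. The median log2 ratio was -0.30, against -0.16 in other cells. The 4 were Esm1, Igfbp3, the Notch target Nrarp and Spry4. Esm1 and Igfbp3 also stand on the fenestrated list, of which 8 of 11 measured members were lower, so the 2 lists overlap. When thinned cells with 2 or more fenestrated UMIs were left out, Spry4 had 12 VEGF/LysM and 4 WT UMIs, too few to give a direction. Nrarp had 59.8 CPM in VEGF/LysM and 90.8 CPM in WT gated cells (log2 ratio -0.60, -1.06 to -0.14), and other cells had a ratio of -0.52. Angpt2, Aplnr and the vessel-tone receptor Ednrb gave no common direction, at 0.45, 0.14 and -0.64.

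Among the fatty-acid genes, 1 of 12 measured genes of uptake, binding and activation was past 1.5-fold. With cells thinned to 1000 UMIs, 4 of the 12 were past 1.5-fold higher and 1 lower, Fabp4 and Gpihbp1 among the higher (0.69 and 0.60). Fabp5 had 1618 CPM in VEGF/LysM and 827 CPM in WT gated cells (log2 ratio 0.97, 0.85 to 1.09). Other cells differed alike, with 212 CPM in VEGF/LysM and 111 CPM in WT other cells (log2 ratio 0.93). Fabp4 had 25559.6 CPM in VEGF/LysM and 17455 CPM in WT gated cells (log2 ratio 0.55, 0.52 to 0.58), beside 4109 CPM in VEGF/LysM and 2306 CPM in WT other cells (log2 ratio 0.83). Gpihbp1 had 1897 CPM in VEGF/LysM and 1357 CPM in WT gated cells (log2 ratio 0.48, 0.38 to 0.58). By depth the Gpihbp1 ratio was -0.14 (-0.53 to 0.23) at 500 to under 1000 UMIs. It was 0.65 at 1000 to under 2000 UMIs and 0.69 from 2000 UMIs. Lpl, at -0.10, and Angptl4, at 0.21, were near equal, and Lpl changed sign under 4 of 17 alternatives.

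The Fabp4 and Fabp5 differences did not hold at every depth. In gated cells of 500 to under 1000 UMIs, 65 of VEGF/LysM and 403 of WT, Fabp4 had 13490.0 and 19380.3 CPM (log2 ratio -0.52) and Fabp5 had 379.7 and 752 CPM (-0.99), lower in VEGF/LysM. In cells of 1000 to under 2000 UMIs, 360 and 251 of them, Fabp4 had 29203 and 16966 CPM (0.78) and Fabp5 1400.4 and 899 CPM (0.64). From 2000 UMIs, in 259 and 71 cells, the values were 24088 and 15441 CPM for Fabp4 (0.64) and 1815 and 816 CPM for Fabp5 (1.15). The shallow VEGF/LysM cells also stood apart in ribosomal protein RNA, at 2.48% of UMIs against 5.40% in the shallow WT cells, while the deeper ranges held 5.27% and 5.35% in VEGF/LysM against 5.61% and 6.01% in WT. The part of this in the reversal was not tested.

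**Figure D3:**
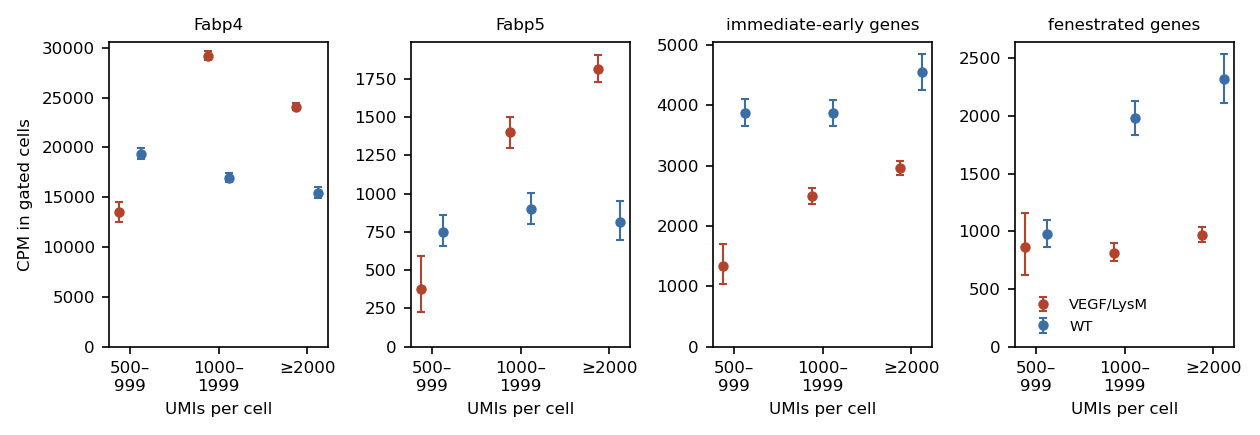
CPM in gated cells (y axis, from 0) of Fabp4, Fabp5, the summed immediate-early list and the summed fenestrated list without Plvap, in 3 ranges of UMIs per cell, for VEGF/LysM and WT, with 95% counting intervals. Fabp4 and Fabp5 are higher in VEGF/LysM only from 1000 UMIs, and the immediate-early sum is lower in VEGF/LysM in each range.

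The capillary factors differed little. Pparg had 1116 CPM in VEGF/LysM and 857 CPM in WT gated cells (log2 ratio 0.38, 0.25 to 0.51), below 1.5-fold, and other cells differed by 0.61. Meox2, at 0.23, and Tcf15, at -0.18, were near equal. Of 14 measured PPAR-gamma targets and partners, 1, Fabp5, was past 1.5-fold higher, with a median of 0.27 against 0.40 in other cells. With thinned cells 4 of these 14 were higher and 1 lower, with a median of 0.31. Of the 22 continuous capillary markers, 2 were past 1.5-fold higher, Fabp5 and Ramp2, and 1 lower, Meox1, with a median of 0.00. Ramp2, a partner of the adrenomedullin receptor, had 559 CPM in VEGF/LysM and 366 CPM in WT gated cells (log2 ratio 0.61, 0.42 to 0.81), and other cells differed by 0.27. By depth, Ramp2 was past 1.5-fold higher only at 1000 to under 2000 UMIs (1.07, 0.75 to 1.40). It was at -0.35 (-1.20 to 0.41) at 500 to under 1000 UMIs and at 0.40 (0.05 to 0.76) from 2000 UMIs.

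Caveolar and junction genes had 0 of 10 and 0 of 18 members past 1.5-fold. Cav1 had 2259 CPM in VEGF/LysM and 2456 CPM in WT gated cells (log2 ratio -0.12, -0.20 to -0.04), Cldn5 had 1761 CPM in VEGF/LysM and 1459 CPM in WT gated cells (log2 ratio 0.27, 0.17 to 0.37) and Cdh5 had 2495 CPM in VEGF/LysM and 2831 CPM in WT gated cells (log2 ratio -0.18, -0.26 to -0.11). By depth the Cav1 ratio ran from -0.72 at 500 to under 1000 UMIs to 0.06 (-0.09 to 0.22) from 2000 UMIs. The 35 nuclear genes of the respiratory chain also had 0 past 1.5-fold, with a median of 0.08 against 0.30 in other cells. Of 18 fatty-acid oxidation and storage genes, 2 were past 1.5-fold higher and 1 lower, beside 4.94% and 5.01% of all genes. Nothing is read from these counts. Acadvl, a mitochondrial dehydrogenase of long-chain fatty acids, had 36.3 CPM in VEGF/LysM and 17.9 CPM in WT gated cells (log2 ratio 1.02, 0.17 to 1.95). Etfb, which takes electrons from such enzymes, had 74.6 CPM in VEGF/LysM and 44.2 CPM in WT gated cells (log2 ratio 0.75, 0.21 to 1.33). The Etfb ratio came to 0.01 when thinned cells with 2 or more fenestrated UMIs were left out. The short-chain enzyme gene Acads was the 1 lower, at -0.61.

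MHC class I and immunoproteasome genes had 4 of 13 past 1.5-fold higher and 0 lower, against the 4.94% of all genes, with a median of 0.46 and 0.26 in other cells. Psmb8, an immunoproteasome subunit, had 296 CPM in VEGF/LysM and 182 CPM in WT gated cells (log2 ratio 0.71, 0.44 to 0.98), and Psmb9, another, had 163 CPM in VEGF/LysM and 108 CPM in WT gated cells (log2 ratio 0.60, 0.24 to 0.96). H2-Q7 had 314 CPM in VEGF/LysM and 207 CPM in WT gated cells (log2 ratio 0.61, 0.35 to 0.87). Nlrc5, the transactivator of class I genes, had 67.9 CPM in VEGF/LysM and 40.6 CPM in WT gated cells (log2 ratio 0.74, 0.17 to 1.35), whereas other cells were equal at 0.00. The Nlrc5 ratio fell short of 1.5-fold with thinned cells (0.29) and under the choice by Aqp7 and Rbp7 alone (0.20). The main class I genes H2-K1, at 0.48, H2-D1, at 0.43, and B2m, at 0.33, were below 1.5-fold. At 500 to under 1000 UMIs H2-K1 was near equal at 1759 and 1693 CPM, and from 2000 UMIs it had 2197 and 1562 CPM. H2-D1 was lower in VEGF/LysM at 500 to under 1000 UMIs, at 1019 and 1373 CPM (-0.43, -0.88 to -0.01), and higher from 2000 UMIs, at 1878 and 1373 CPM (0.45). The list's count depended on the cells: 3 of 13 were past 1.5-fold higher with thinned cells, and 0 of 13 when those with 2 or more fenestrated UMIs were also left out, with a median of 0.43 in both cases.

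Interferon-induced genes had a median of -0.07 in gated cells against 0.18 in other cells. Of 22 measured, 1 was past 1.5-fold higher (Igtp, 0.60) and 1 lower (Ifit1, -0.65). This is near the 4.94% and 5.01% of all genes, so nothing is read from these counts. With thinned cells the median was 0.04, with Igtp at 1.56 and Ifit1 at -0.15. Cxcl9 had 449 CPM in VEGF/LysM and 343 CPM in WT gated cells (log2 ratio 0.39, 0.19 to 0.59). Glucocorticoid-induced genes had 1 of 12 past 1.5-fold higher, Cdkn1a at 0.63, and 0 lower, beside the 4.94% and 5.01% of all genes. Fkbp5 was at -0.02, but ran from -0.51 to 1.03 and had the other sign under 6 of 17 alternatives, so no direction is read.

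Immediate-early genes, which are switched on within minutes of a stimulus, tissue digestion included, had 7 of 13 past 1.5-fold lower and 0 higher in VEGF/LysM gated cells, against the 5.01% of all genes. The median was -0.60, against -0.11 in other cells. Egr1 had 202 CPM in VEGF/LysM and 515 CPM in WT gated cells (log2 ratio -1.35, -1.57 to -1.13), beside 221 CPM in VEGF/LysM and 341 CPM in WT other cells (log2 ratio -0.63). Junb had 120.3 CPM in VEGF/LysM and 279.6 CPM in WT gated cells (log2 ratio -1.22, -1.51 to -0.93), with other cells at -0.17. Fos had 29.6 CPM in VEGF/LysM and 94.4 CPM in WT gated cells (log2 ratio -1.68, -2.24 to -1.13), Zfp36 had 161 CPM in VEGF/LysM and 349 CPM in WT gated cells (log2 ratio -1.12, -1.37 to -0.87) and Jun had 289.6 CPM in VEGF/LysM and 482 CPM in WT gated cells (log2 ratio -0.73, -0.93 to -0.53). Ier2, at -0.60, and Ier3, at -1.29, completed the 7.

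The direction of the summed list held in each depth range, but not that of every member. From 2000 UMIs Ier2 was near equal, with 112.5 CPM in VEGF/LysM and 114.4 CPM in WT gated cells (-0.02, -0.69 to 0.70). The summed list had 1339 CPM in VEGF/LysM and 3879 CPM in WT gated cells at 500 to under 1000 UMIs (-1.53), 2498 and 3868 CPM at 1000 to under 2000 UMIs (-0.63), and 2955 and 4543 CPM from 2000 UMIs (-0.62). Klf2, at 0.06, and Klf4, at 0.14, shear-responsive factors, were near equal. Heat-shock genes, which also respond to handling, had 0 of 11 past 1.5-fold, beside 4.94% of all genes higher and 5.01% lower. Their median was 0.07 in gated cells against 0.50 in other cells. With thinned cells 2 of 11 were past 1.5-fold higher and 0 lower, and nothing is read from these counts. The time each gland spent from dissection to sorting is not given, and its part in the result cannot be told apart from genotype.

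Fenestrated capillary genes had 8 of 11 measured members past 1.5-fold lower and 0 higher in VEGF/LysM gated cells, against the 5.01% of all genes, with a median of -0.88 against -0.36 in other cells. Esm1, a secreted proteoglycan of tip and fenestrated cells (chr13:113209659-113218098, plus strand), had 20.2 CPM in VEGF/LysM and 146 CPM in WT gated cells (log2 ratio -2.85, -3.48 to -2.27), while it was slightly higher in other cells, with 1030.0 CPM in VEGF/LysM and 868 CPM in WT other cells (log2 ratio 0.25). Igfbp3 had 71.9 CPM in VEGF/LysM and 216 CPM in WT gated cells (log2 ratio -1.59, -1.95 to -1.24), and other cells were near equal at -0.07. Cyp26b1, an enzyme that breaks down retinoic acid, had 16.1 CPM in VEGF/LysM and 92.0 CPM in WT gated cells (log2 ratio -2.51, -3.24 to -1.84), and here other cells differed as well, with 116 CPM in VEGF/LysM and 409 CPM in WT other cells (log2 ratio -1.82). Ehd3 had 38.3 CPM in VEGF/LysM and 153 CPM in WT gated cells (log2 ratio -1.998, -2.47 to -1.54), and Igfbp5 had 67.2 CPM in VEGF/LysM and 244 CPM in WT gated cells (log2 ratio -1.86, -2.22 to -1.51).

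Since these genes belong to another capillary type, their level in gated cells was also followed by depth. By depth, the summed list had in VEGF/LysM and WT gated cells 859 and 975 CPM at 500 to under 1000 UMIs (-0.18), 816 and 1977 CPM at 1000 to under 2000 UMIs (-1.28), and 968 and 2319 CPM from 2000 UMIs (-1.26). With cells thinned to 1000 UMIs, 8 of 11 members were past 1.5-fold lower, with a median of -1.26. Leaving out thinned cells by their fenestrated UMIs selects on the listed genes themselves and leaves few of their UMIs (6 VEGF/LysM and 2 WT UMIs of Esm1), so no direction is read for them there.

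**Figure D4:**
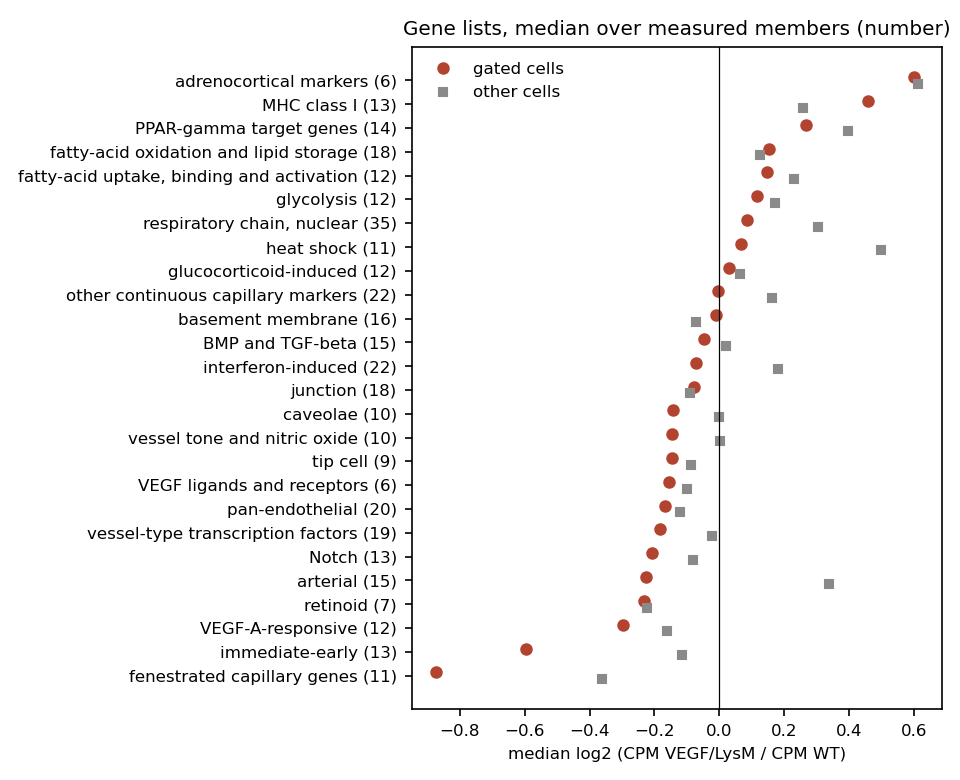
Median log2 ratio of VEGF/LysM over WT CPM (x axis) over the measured members of each gene list (number in parentheses, lists with at least 6), in gated cells (circles) and other cells (squares). MHC class I genes stand at 0.46 in gated cells, immediate-early genes at -0.60 and fenestrated genes at -0.88.

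Among the 12 genes named for higher levels in VEGF/LysM gated cells, several rested on few cells. A top cell held 47.9% of the VEGF/LysM UMIs of Caln1, 71.0% of those of Cacnb2, 47.2% of those of Cacna1c, 60.6% of those of Cacna2d1 and 48.0% of those of Pcsk5, of which the Cacn genes encode calcium channel subunits. For Fdx1, an electron carrier of steroid synthesis, it held 28.9%, for Cpe, a peptide-processing enzyme, 31.7%, and for C1qa, a complement gene of macrophages, 66.7%. Caln1, Cacnb2, Cacna1c, Cacna2d1, Cpe and Pcsk5 changed sign under at least 1 alternative. Of the adrenocortical markers, 4 of 6 measured were past 1.5-fold higher and 1 lower, with a median of 0.60 against 0.61 in other cells, and 1 VEGF/LysM cell held 246 of their 993 UMIs. This did not hold under other choices: 0 of 6 were higher with thinned cells (median -0.13), 1 under the choice by Aqp7 and Rbp7 alone (-0.37), 1 without cells of non-endothelial markers (-0.43) and 1 with each gene's top cell left out (0.37). Their part in the results named here was not tested. Spread over many cells were Cmss1, with 4347 CPM in VEGF/LysM and 1659 CPM in WT gated cells (log2 ratio 1.39, 1.31 to 1.47) in 669 and 568 cells, and Mir6236, with 435 CPM in VEGF/LysM and 179 CPM in WT gated cells (log2 ratio 1.28, 1.02 to 1.55). Both differed alike in other cells (1.63 and 1.46). Reads of repeated sequence may be counted at both loci, so their counts are uncertain. Ephx1, which hydrolyses epoxides, had 80.6 CPM in VEGF/LysM and 33.5 CPM in WT gated cells (log2 ratio 1.27, 0.67 to 1.92) over 95 and 27 cells.

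Of the 12 genes named for lower levels, Retnla had 0 UMIs in VEGF/LysM and 66 UMIs in WT gated cells, all 66 in 1 cell, and 71.0% of the WT UMIs of Fn1 (fibronectin) also lay in 1 cell. Maf, a transcription factor of sinusoidal and lymphatic endothelium, had 6.72 CPM in VEGF/LysM and 71.7 CPM in WT gated cells (log2 ratio -3.42, -4.55 to -2.44). Exoc3l2 had 28.2 CPM in VEGF/LysM and 104 CPM in WT gated cells (log2 ratio -1.88, -2.45 to -1.33), and D5Ertd615e had 14.8 CPM in VEGF/LysM and 77.7 CPM in WT gated cells (log2 ratio -2.39, -3.16 to -1.68). VEGF/LysM and WT other cells held far more, at 407 and 490 CPM of Maf, 773 and 908 CPM of Exoc3l2 and 714 and 746 CPM of D5Ertd615e. WT gated cells also held more of the whole fenestrated list, whose part in these values was not tested. Others past 1.5-fold lower were Cyr61 (-1.02), Rhob (-0.75), Sox4 (-0.98), Meis2 (-0.95), the retinoic acid receptor Rarb (-1.58) and Edn1 (endothelin-1, -0.89). In each library Rhob, Sox4, Meis2 and Rarb were higher in other than in gated cells, and Cyr61 was lower. Edn1 was higher in other cells of VEGF/LysM and lower in those of WT.

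Of the called genes, 63 of 352 higher and 73 of 357 lower were past 1.5-fold under all 15 alternatives. Fabp5, Cmss1, Ephx1, Hist1h2bc, Tspo, Ubd and Acadvl were among the 63. Egr1, Fos, Junb, Jun, Zfp36, Ehd3, Igfbp3, Maf and Sox4 were among the 73. For Ehd3 and Igfbp3, the alternative without thinned cells of fenestrated UMIs selects on the genes themselves, so no direction is read there. The 15 do not include the ranges of depth, and at 500 to under 1000 UMIs Fabp5 was lower in VEGF/LysM (-0.99).

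**Figure D5:**
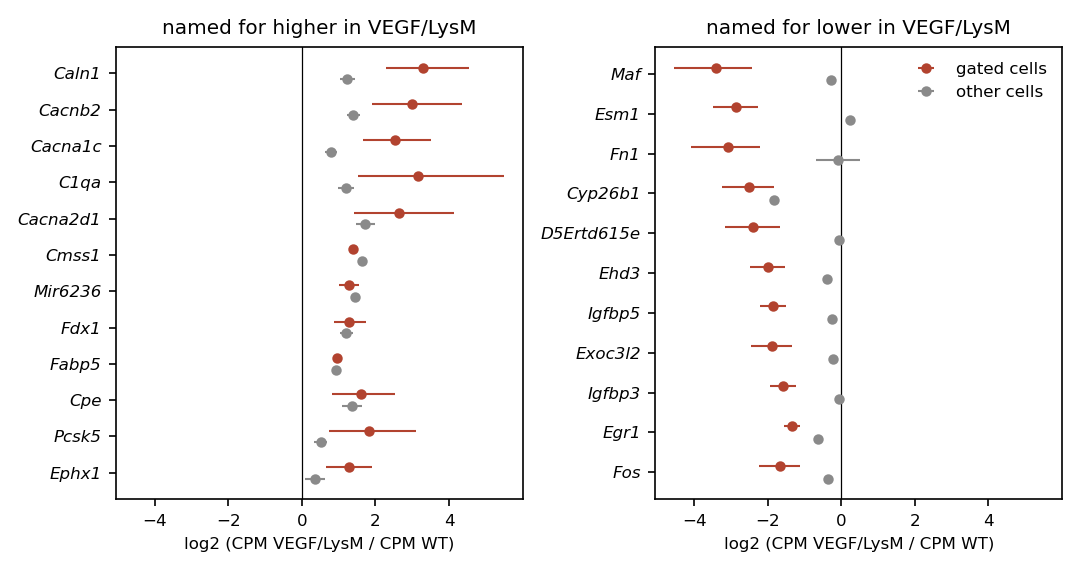
Log2 ratio of VEGF/LysM over WT CPM (x axis) for the genes named for higher and lower levels in gated cells, in gated cells and in other cells, with 95% counting intervals. Retnla is not drawn, having 0 UMIs in VEGF/LysM gated cells. Cmss1, Mir6236 and Fabp5 lie at like positions in both sets of cells, and Esm1 lies on opposite sides.

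Gated cells varied in marker RNA among themselves. The 4 genes of the choice summed to a median of 20 UMIs per VEGF/LysM gated cell (quartiles 13 and 31, highest 165) and 9 UMIs per WT gated cell (7 and 13, highest 51), at 1.12% and 0.990% of a cell's UMIs. In thinned cells with 16 or more such UMIs, Fabp4 had 29931 CPM in VEGF/LysM (130 cells) and 20379 CPM in WT (29 cells), and the fenestrated list 723 and 897 CPM. With 4 to 7 such UMIs, Fabp4 had 21622 CPM (127 cells) and 12902 CPM (132 cells), and the fenestrated list 1299 and 3121 CPM. These ranges are made from the genes of the choice, so the values are a description and nothing is read from them.

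Thinned gated cells with a UMI of Aqp7 or Rbp7 (476 VEGF/LysM and 247 WT) were set beside those with neither (209 and 113). Of 1437 measured genes, 0 were past 2-fold higher in both libraries and 1 lower. This was Meis2, with 109 CPM in cells with and 230 CPM in cells without such a UMI in VEGF/LysM, and 409 and 823 CPM in WT. The UMIs that make this split are few per cell, so it also sorts by chance of detection.

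Cells with 2 or more UMIs of arterial genes (293 and 189) differed from those with fewer (392 and 171) in 3 of 1431 genes past 2-fold higher in both libraries and 0 lower. Tm4sf1, itself a membrane protein of endothelium, had 1133 CPM against 548 CPM in VEGF/LysM and 1063 against 427 CPM in WT. S100a6, a calcium-binding protein, had 205 against 79.1 CPM and 344 against 70.2 CPM. Glul, glutamine synthetase, had 167 against 71.4 CPM and 217 against 76.0 CPM.

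The edges of the choice were sharp on some sides only. Cells with a marker sum of 4, just inside, numbered 9 in VEGF/LysM and 56 in WT, and those with 3, just outside, 14 and 29. At this edge Fabp4 did not drop outward, with 3164 CPM inside and 7171 CPM outside in VEGF/LysM, and 15098 and 19368 CPM in WT. The summed fenestrated list had 1657 CPM inside and 2020 CPM outside in VEGF/LysM, and 1395 and 1942 CPM in WT. Cells left out for a single Plvap UMI numbered 50 and 84, and those left out for 3 or more haemoglobin UMIs 94 and 82. The fenestrated list summed to 910 CPM in VEGF/LysM and 1704 CPM in WT gated cells, against 1199 and 5424 CPM in the cells with 1 Plvap UMI and 894 and 1122 CPM in the haemoglobin-bearing cells. Fabp4 had 25559.6 and 17455 CPM in gated cells, against 27469 and 17729 CPM in the haemoglobin-bearing cells.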

How the data were processed

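The authors deposited raw UMI counts per gene and cell, whole numbers with no normalization, per the file headers. The submitters' processing notes name Cell Ranger 7.0.1, Seurat and mm10, and the matrix header names Cell Ranger 7.0.0. Not given in the sources used here were the annotation release and the treatment of intronic reads. Free RNA was not measured, since all listed barcodes had been called as cells. There were 10323972 UMIs over 3807 VEGF/LysM barcodes and 8606348 UMIs over 6276 WT barcodes. Limits of 500 UMIs and 300 genes from below and 15% mitochondrial UMIs from above left out 14 and 142 of them. Doublets were not removed, and an alternative left out the cells of highest Scrublet score (scanpy 1.11.5).

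Counts were summed over gated or other cells of a library and scaled to counts per 1000000 (CPM). Ratios have exact conditional binomial intervals, CPM exact Poisson intervals, shares exact Clopper-Pearson intervals and their difference a Newcombe interval (scipy 1.17.1), all at 95% and for counting error only. With 1 library per genotype no test was made. A gene was measured at 50 or more UMIs over the groups compared, and a count of 0 was set to a floor of 3 counts per group of cells. Between libraries a gene was called past 1.5-fold, and between cells past 2-fold the same way in each library. Named were the 12 highest and 12 lowest between libraries and the 15 highest and 15 lowest between cells, ranked by the interval bound nearest to equal levels, with at least 20 CPM in the higher group. Results for 2 genes are not reported here. Genes of the choice, mitochondrial, ribosomal protein and clone-named genes were left out of that rule. Further genes stand for 38 lists and were picked after their values were seen. The members, lists and rules were chosen with earlier results of these data known. Of 54838 gene identifiers, 54723 matched GENCODE M21, which gave coordinates on GRCm38. Promoters were those of RefSeq on GRCm38.p6. Scripts were tested on simulated data.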

Additional observations from a re-analysis of the deposited data

Results flagged for a closer look

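Among the genes described between the libraries, 4 had log2 ratios of VEGF/LysM over WT with opposite signs in gated and other cells and intervals that left out equal levels in both, and the difference between these ratios was not tested. Esm1, of tip and fenestrated cells, had a log2 ratio of VEGF/LysM over WT of -2.85 in gated cells and 0.25 in other cells. Cxcl12, a chemokine, had -0.25 in gated cells and 0.60 in other cells. Cav1, of caveolae, had -0.12 in gated cells and 0.13 in other cells. The gated Cav1 ratio was -0.72 at 500 to under 1000 UMIs and -0.14 at 1000 to under 2000 UMIs. From 2000 UMIs it was 0.06 (-0.09 to 0.22), so its sign did not hold at every depth. Flt1, VEGF receptor 1, had -0.25 in gated cells and 0.03 in other cells. Each ratio compares 1 library with 1 library. The Esm1 ratio in gated cells rests on 30 VEGF/LysM and 122 WT UMIs, and WT gated cells also held more of the whole fenestrated list, whose part in the result was not tested.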

How the results depend on the processing

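No paired analysis was possible because each genotype had 1 library, and for the same reason no replicate could be left out. The share of gated cells was higher in VEGF/LysM under every alternative run, and its difference of 6.21 points became 10.5 with cells thinned to 1000 UMIs, 9.58 with the stricter cell filter, 7.90 without cells of 3 or more non-endothelial UMIs, and 9.69 with thinned cells of 2 or more fenestrated UMIs left out, an alternative added after the data were seen. Counts of genes followed the minimum of UMIs: 50 higher and 47 lower between libraries and 231 higher and 511 lower against other cells at 200 UMIs, 846 higher and 785 lower between libraries at 20 UMIs. With thinned cells of 2 or more fenestrated UMIs left out, they were 201 higher and 212 lower, with fewer cells and genes measured. Between libraries, 1401 values of named genes moved by less than their interval, 120 moved more, and 16 of genes past 1.5-fold turned in sign. Genes short of 1.5-fold, such as Lpl and Timp4, are not counted as turned when they cross 0, nor are values on 3 or fewer UMIs in both libraries. With thinned cells the ratios turned to -0.29 for Caln1, -0.67 for Cacnb2, -0.28 for Cacna1c and -0.93 for Pcsk5. Under the choice by Aqp7 and Rbp7 alone they turned to -0.81 for Caln1, -1.22 for Cacnb2, -0.35 for Cpe and -1.44 for Pcsk5. Without cells of non-endothelial markers they turned to -0.34 for Cacna1c, -0.72 for Cacna2d1, -0.72 for Cpe and -1.14 for Pcsk5. With thinned cells of fenestrated UMIs left out they turned to -1.07 for Caln1, -0.56 for Pcsk5, 0.29 for Esm1 and 0.29 for Spry4. All of these turned values rested on few UMIs, at most 14 in VEGF/LysM and 10 in WT, and the cause was not tested. Against other cells, 1 value past 2-fold turned in sign, Cd74 in WT at 2.12 when other cells with non-endothelial markers were left out.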

Other observations

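Other gene groups of gated cells were described against other cells in the same way, with no test. Of 18 basement membrane and integrin genes, 3 were past 2-fold higher in each library and 2 lower. The collagen receptor gene Itga1 had 963 CPM in gated cells against 239.6 CPM in other cells of the VEGF/LysM library, and 916 against 261 CPM in those of the WT library (2.01 and 1.81 on the log2 scale). The laminin receptor gene Itga6 (1.21 and 1.14) and the matrix-modulating gene Sparcl1 (2.31 and 2.81) were the others higher, and Col15a1, a vessel collagen, was among those lower (-1.91 and -1.61). Of 23 interferon-induced genes, 3 were higher, namely Cxcl9 and the guanylate-binding genes Gbp2 (1.46 and 1.24) and Gbp4 (1.32 and 1.07), and 1 lower, Rsad2, with 468 CPM in gated cells against 1256 CPM in other cells of the VEGF/LysM library, and 626 against 1296 CPM in those of the WT library (-1.43 and -1.05).

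Of 15 genes of vessel tone and nitric oxide, 1 was past 2-fold higher and 6 lower. The apelin receptor gene Aplnr had 288 CPM in gated cells against 124 CPM in other cells of the VEGF/LysM library, and 260.5 against 123 CPM in those of the WT library (1.22 and 1.08). Calcrl (-1.51 and -1.34) and Ramp3 (-4.39 and -3.67), parts of the adrenomedullin receptor, and the endothelin receptor gene Ednrb (-1.72 and -1.14) were lower. Rgs5, a regulator of G-protein signalling that pericytes also express, had 141 CPM in gated cells against 13.8 CPM in other cells of the VEGF/LysM library. In the WT library it had 129 against 19.5 CPM (3.35 and 2.73). Of 3 measured mural and fibroblast markers, it was the only 1 past 2-fold higher, and 2 were lower, with medians of -1.885 and -2.68. In all, 11 VEGF/LysM and 8 WT gated cells held 3 or more UMIs of such markers, whose part in the Rgs5 value was not tested. Of 7 measured genes of barrier endothelium, 2 were past 2-fold higher and 3 lower, with medians of -0.84 and -0.65. Among the 2 higher, the drug efflux pump gene Abcb1a had 133 CPM in gated cells against 43.3 CPM in other cells of the VEGF/LysM library. In the WT library it had 142 against 29.7 CPM (1.62 and 2.26). Among 20 pan-endothelial genes, 3 were past 2-fold higher: Cdh5, Cldn5 and the sphingosine-1-phosphate receptor gene S1pr1 (1.10 and 1.14). The angiopoietin receptor gene Tek (-1.12 and -1.11) was the only 1 past 2-fold lower.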
